A study of Sus scrofa with 16 samples.

Results

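Described here are short stretches of the pig genome where DNA methylation enrichment peaks were found in the hearts of Yorkshire highland pigs (YH) and no peak of another group lay over the base examined. The genome was divided into windows of 500 bp, and a window was kept when its middle base (base 250) lay under 3 or 4 YH peaks and under 0 peaks in each of the Tibetan highland (TH), Tibetan lowland (TL) and Yorkshire lowland (YL) groups. Of 4898768 windows on chromosomes 1 to 18, 620135 lay under at least 1 peak of any group, and 631 of these met the rule, or 0.102%. Adjoining windows were joined to 470 regions, which were covered by 1439 YH peaks. The windows were chosen by the peaks of all 4 groups, so the presence of YH peaks and the absence of other peaks at their middle base is the rule itself and not a finding. Such windows and regions are called private to YH below.

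The series holds methylated DNA immunoprecipitation sequencing (MeDIP-seq) of 16 hearts, 4 in each group, from male pigs of 6 months of age, which the methods of the study describe as castrated boars. Tibetan pigs are a breed of the Tibetan Plateau, and Yorkshire pigs are a lowland breed. TH and YH were raised at a highland site and TL and YL at a lowland site, and YH and TL descended from animals that had been moved there shortly before. Elevation, place and feeding at each site cannot be told apart. For each group 1 peak list was deposited, and at most 4 of its peaks lay over the middle of any window. Each list was therefore read as the peaks of 4 animals put together, although the animal behind a peak is not named. There is no spread between animals for any value, and no test between groups was made.

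Mammalian DNA methylation adds methyl groups to cytosines, for the most part at CpG dinucleotides. It is dense over repeats and most of the genome between genes, commonly found in the bodies of transcribed genes and usually absent from active CpG-rich promoters, and it helps to keep chromatin closed. In MeDIP-seq an antibody against 5-methylcytosine pulls down methylated fragments, so that a peak appears where both methylation and CpG dinucleotides are frequent enough. A heart sample mixes muscle cells, vessel cells, fibroblasts and blood cells, and a change of methylation within a cell type cannot be told apart from a change in the mix of cells. No expression was measured in these libraries, and the labelled tissue could not be checked against marker genes. Lack of a peak means that the peak caller did not report enrichment there, not that the DNA was unmethylated.

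The windows private to YH were at the far edge of a broad distribution. There were 95948 windows under 3 or 4 YH peaks, and most of them also lay under peaks of the other groups. Taken against each group alone, 2825 of them had 0 YL peaks, 9229 had 0 TH peaks and 10437 had 0 TL peaks. These were 0.573%, 1.93% and 2.33% of the windows under a peak of either list of the pair, in the same order. Windows that lacked peaks of both Tibetan groups numbered 3632, and 631 of these also lacked YL peaks. Thus 0.658% of the windows with 3 or 4 YH peaks were private (95% Wilson confidence interval 0.608–0.711%, counting error only, since neighbouring windows share peaks). Among windows with exactly 4 YH peaks, 42 of 45306 were private (0.0927%), against 589 of 50642 with exactly 3 (1.16%).

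**Figure D1:**
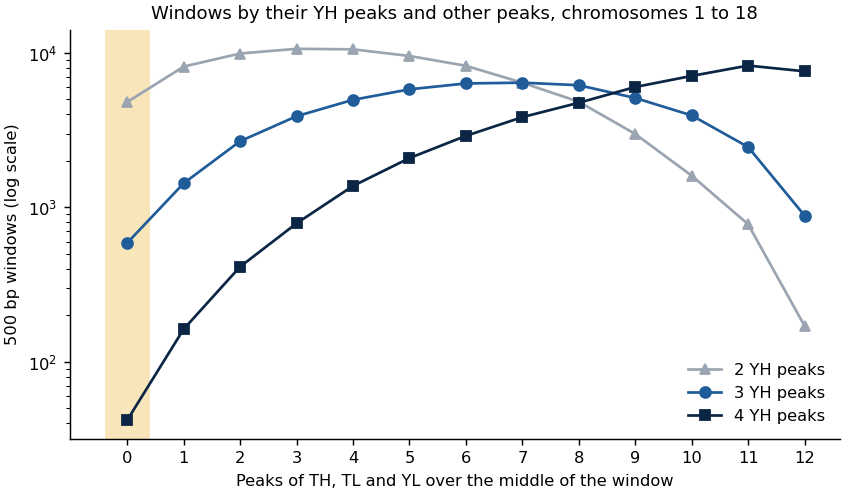
Number of 500 bp windows on chromosomes 1 to 18 (log scale) by the number of TH, TL and YL peaks over their middle base, for windows under 2, 3 or 4 YH peaks, with the private side shaded. The line for 4 YH peaks stood at 7590 windows at 12 other peaks and at 42 at 0, and the line for 3 YH peaks at 885 and 589.

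Just outside the rule, 4801 windows had 2 YH peaks and 0 others, and 1594 windows had 3 or 4 YH peaks and 1 other peak. In the latter, the 1 other peak was of YL in 964 windows (60.5%), of TL in 323 (20.3%) and of TH in 307 (19.3%). YL held 38.0% of all the autosomal peaks of the 3 lists, so its share of these near misses was above its share of peaks. The median number of tags (reads assigned to a peak by the caller) was 29 in the YH peaks over private windows with 4 peaks and 29 in those with 3. It was 27 in the peaks over windows with 2 YH peaks and 0 others and 30 where there was 1 other peak. Peaks on both sides of the limits were thus of similar size. Over windows with 12 other peaks, the YH peaks were larger, with a median of 51 tags.

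The 470 regions were short. A single window formed 349 of them (74.3%), 2 windows formed 98, 3 windows formed 15, 4 windows formed 4 and 5 windows formed 2, while the last ones had 6 and 9 windows. In 32 regions 4 peaks lay over the middle of at least 1 window, and 438 regions had at most 3. Counted base by base without a grid, 306126 bp lay under 3 or 4 YH peaks and 0 other peaks, in 2085 stretches. Their median was 37 bp, and 212 stretches reached 500 bp, the longest being 4474 bp. With 212 such stretches against 470 regions, many regions rested on strips narrower than a window, since the rule looked at 1 base of it. In 399 of the 631 windows no base lay under a peak of another list.

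The YH peaks over the private windows had between 13 and 272 tags, with quartiles of 19, 29 and 52. All other autosomal YH peaks had the same median of 29 tags, with quartiles of 20 and 47 and a highest value of 3375. The fold enrichment over the local background was a median of 6.77 in the former and 7.30 in the latter. Length was a median of 1072 bp against 1023 bp, and the upper quartile of length was 1780 bp against 1481 bp. Compared with the whole list, the peaks over private windows thus had the same median tags, a lower median enrichment and a greater median length. A closer comparison is with the 140222 YH peaks over windows that also had 3 or 4 YH peaks but were not private. These had a median of 35 tags (quartiles of 23 and 56), 7.32-fold enrichment and 1167 bp, so that against them the peaks over private windows had fewer tags, lower enrichment and a shorter length. The weakest covering peak had fewer than 20 tags in 191 regions (40.6%) and at least 50 tags in 88 regions (18.7%).

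Whether the covering YH peaks met peaks of other groups elsewhere along their length was not fixed by the rule. Of the 1439 peaks, 829 (57.6%, 95% Wilson confidence interval 55.0–60.1%) overlapped a peak of another list outside the private base. The interval counts each peak as separate. It is too narrow, since 3 or 4 peaks lay over each region and mostly overlapped other lists together or not at all. By list, 44.9% overlapped a YL peak, 39.7% a TL peak and 38.1% a TH peak. In all autosomal YH peaks, where no base was kept free of other peaks by a rule, the shares were 85.4%, 76.2% and 78.1%. On this basis the regions fell into 2 kinds. In 190 regions (40.4%) no covering YH peak touched a peak of another list, and these are called free-standing. In the other 280 regions at least 1 covering peak did, and in 260 regions every covering peak did.

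The free-standing regions were compact, with few tags. Their weakest covering peak had a median of 16 tags, close to the lowest value of 13 in the YH list, and their strongest a median of 23.5, below the list's median of 29. The covering peaks together spanned a median of 978 bp. Their summits lay a median of 88.5 bp apart, and in 166 of the 190 regions all the summits fell inside the private windows. The nearest peak of another list was a median of 2607 bp away. The lack of other peaks along these YH peaks is the definition of the split, which also bears on where the summits can fall, and short peaks meet it more easily than long ones.

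The other 280 regions held larger peaks that extended beyond the private windows. Their weakest peak had a median of 34.5 tags and their strongest a median of 48.5, and the peaks spanned a median of 1792 bp. The summits were all inside the private windows in 19 of the 280. At the summit of the strongest covering YH peak, 250 of these regions lay under at least 1 peak of another list and 76 under at least 6, with a mean of 1.56 YL, 1.21 TL and 1.18 TH peaks beside 3.29 YH peaks. In 8 regions 12 other peaks lay over the summit. Here the private windows were mostly flanks of peaks whose summit also lay under peaks of other lists.

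**Figure D2:**
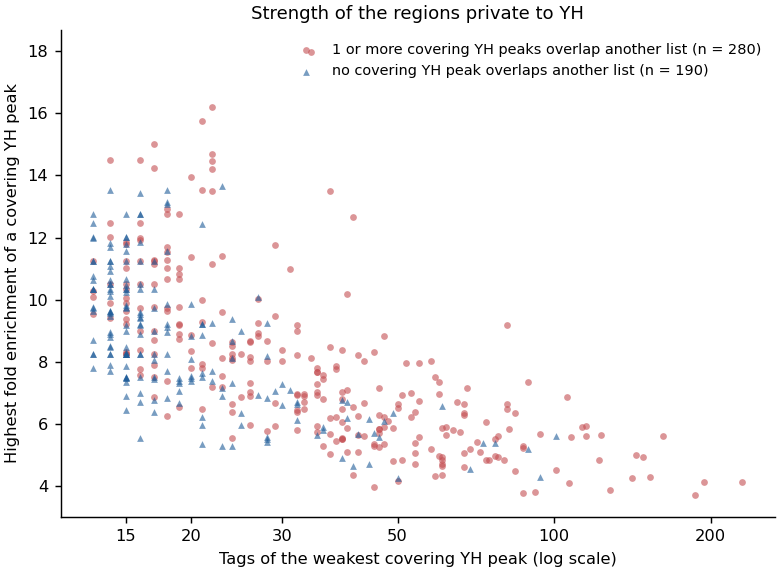
Each of the 470 regions by the tags of its weakest covering YH peak (x axis, log scale) and the highest fold enrichment of a covering YH peak (y axis). Triangles are the 190 free-standing regions, which crowd at the left (median of 16 tags), and circles are the other 280 (median of 34.5 tags).

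Peaks of the other groups often began directly beside the private windows. At least 1 of them overlapped the region off the middle base in 232 of 470 regions (49.4%), and 354 regions had 1 within 2000 bp. The median distance from a region to the nearest peak was 717 bp for YL, 1269 bp for TH and 1695 bp for TL. YL overlapped 179 regions, TH 122 and TL 119. The 9 most isolated regions were more than 10000 bp away from any other peak, and the greatest distance was 25540 bp. Averaged over all regions, the number of YL peaks was 0 at the middle by the rule, 0.489 at 1000 bp to the right and 0.340 at 1000 bp to the left. For TH these values were 0.381 and 0.266 and for TL 0.355 and 0.281. Over all autosomal windows the means were 0.158 YL, 0.127 TH and 0.112 TL peaks, below the values at 1000 bp on either side. Away from the middle, values below these means were seen on the right only, and at 3750 bp to the right the value was 0.130 for YL and 0.083 for TL.

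**Figure D3:**
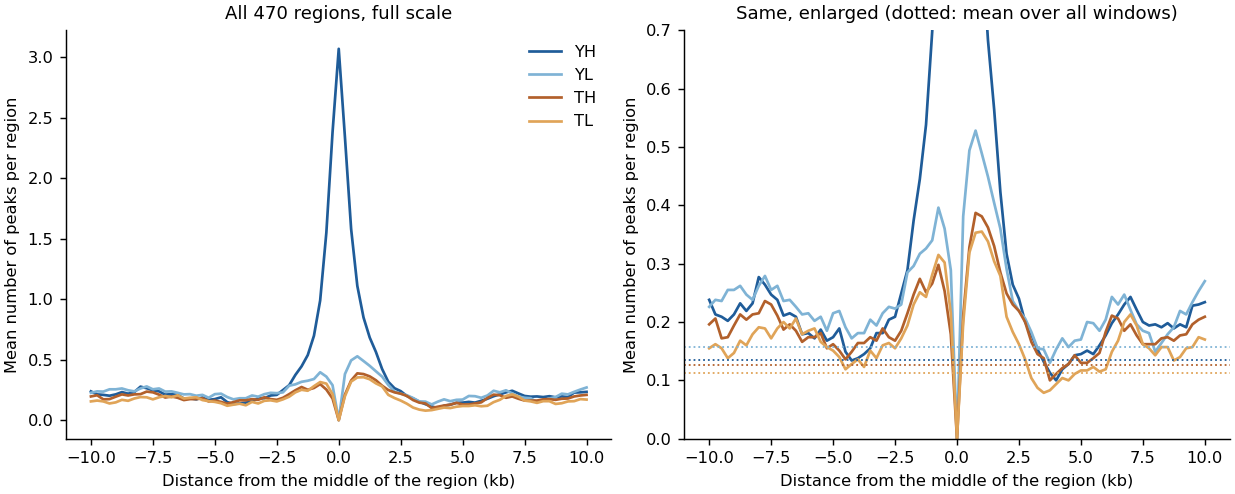
Mean number of peaks of each list per region (y axis) against the distance from the middle of the region in kb (x axis), over all 470 regions, at full scale and enlarged. YH peaked at 3.07, while the other lists dropped to 0 at the middle by the rule and were highest within about 1 kb on either side, and the dotted lines mark the means over all autosomal windows.

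The longest regions are described by position (Sscrofa10.2). For length 10 were named, 8 of them longer than 1500 bp and the last 2 taken from 15 regions of 1500 bp by the summed tags of their YH peaks. The longest was chr6:156535501-156540000, 9 windows under 3 YH peaks with 272, 202 and 194 tags and a fold enrichment of 3.78, 4.12 and 3.47. The peak with 272 tags was 7063 bp long and, to the right of the region, met 1 peak each of TH, TL and YL, with 104, 55 and 118 tags. The other 2 YH peaks met none. YL had a peak as near as 65 bp, TH 185 bp and TL 387 bp, all on the right. These lists also had peaks to the left, which none of the 3 YH peaks reached. The 3 YH summits were spread over 5599 bp, and 2 of them lay inside the region.

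A different picture was seen at chr10:7545001-7548000, 6 windows long. Its 3 YH peaks had 207, 149 and 101 tags at 4.82, 3.8 and 5.61-fold enrichment. They began within 55 bp of each other and had summits within 61 bp, but their lengths were 5594, 4074 and 2920 bp. No peak of another list was nearer than 4554 bp. The left edge and the summit were therefore common to the 3 peaks, and the right edge was not.

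At chr9:116494501-116497000, the longest region of its kind, 4 YH peaks lay over the middle of each of 5 windows. The lowest number of tags in a peak was 94, the next were 107 and 112, and fold enrichment was between 3.87 and 4.3. Their starts lay within 147 bp and their ends within 446 bp of each other. Summits were at 2 places, near the left edge in 2 peaks and right of the middle in the other two, 1537 bp apart at most. The nearest peak of another list was 10536 bp away. Of the 10 regions named for length, this one had the greatest distance to a peak of another list.

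**Figure D4:**
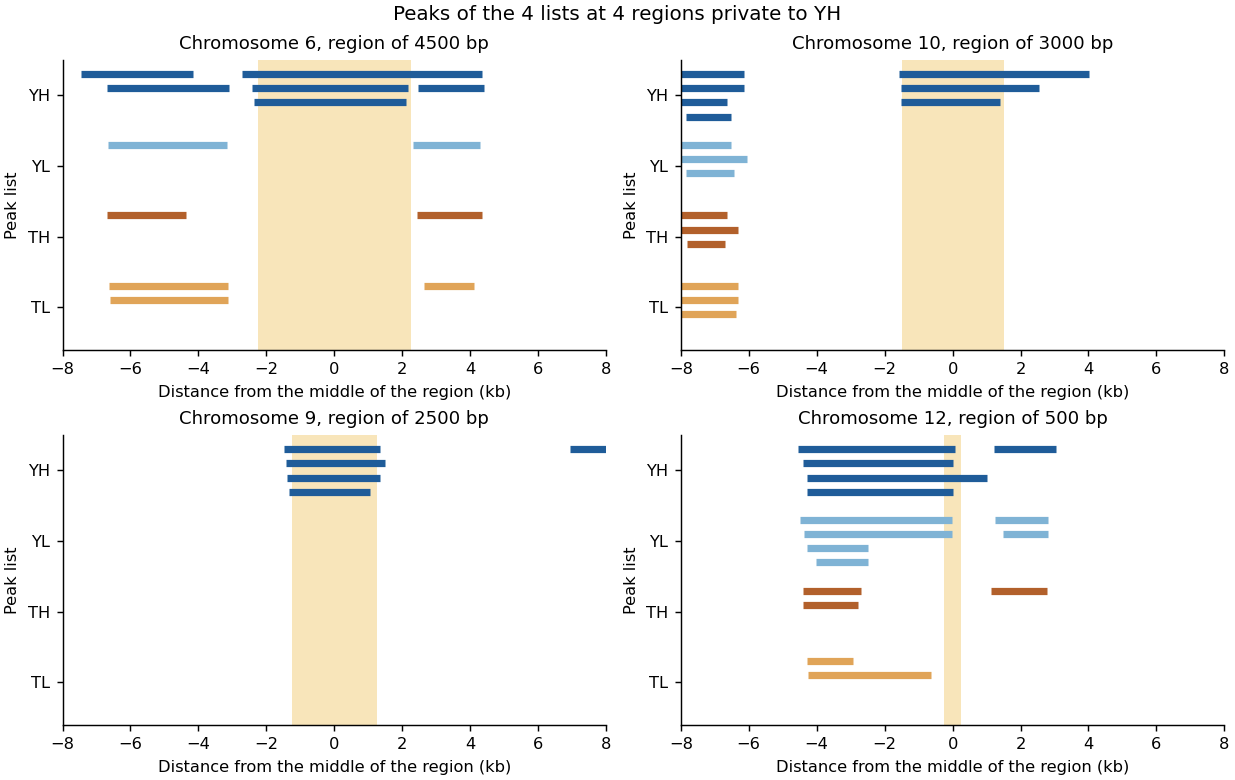
Peaks of the 4 lists (bars, 1 row per overlapping peak) around 4 regions private to YH (shaded), against the distance from the middle of the region in kb. The regions on chromosomes 10 and 9 stand free of other lists' peaks, the 4500 bp region on chromosome 6 lies between peaks of all lists, and the 500 bp region on chromosome 12 is the right flank of peaks that the other lists also hold.

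Free-standing regions made up 6 of the 10 named for length. Beside those on chromosomes 10 and 9, these were chr12:4037001-4039500 (112, 101 and 89 tags), chr7:46349501-46351500 (122, 81 and 77 tags), chr2:146172501-146174500 (88, 65 and 61 tags) and chr17:30932501-30934000 (135, 121 and 73 tags). The nearest peaks of other lists were 2382, 1793, 6402 and 3620 bp away. The remaining long regions each touched other groups. At chr10:20581501-20583500 all 3 YH peaks (162, 161 and 128 tags) met a single TH peak of 54 tags, while the nearest YL peak was 8184 bp and the nearest TL peak 8478 bp away. At chr18:3440001-3442000, 1 of 3 YH peaks (119, 84 and 77 tags) met a TH peak of 86 tags. At chr18:21202001-21203500 the 3 YH peaks (187, 160 and 115 tags) met 4 YL peaks and 1 peak each of TH and TL. In all 23 regions of 3 or more windows, the 15 of equal length included, 14 were free-standing and no peak was above 6.77-fold enrichment. Of the 98 regions of 2 windows 72 were free-standing, and of the 349 regions of a single window 104 were. The highest fold enrichment of a region had a median of 5.38 in the regions of 3 or more windows, against 8.26 in those of a single window.

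The 10 regions of highest fold enrichment were not free-standing. This did not hold over all regions, where the highest fold enrichment of a region had a median of 8.3 in the free-standing ones and 7.19 in the others. All 10 were single windows with peaks of 14 to 40 tags, and in 9 of them every covering peak overlapped a peak of another list. The highest value of the members, 17.96-fold, was found at chr2:38357001-38357500. Its 3 YH peaks had 40, 34 and 34 tags, with summits within 25 bp that lay to the left of the window. These overlapped 4 YL, 4 TH and 3 TL peaks with up to 56, 49 and 38 tags, and with 20.9, 23.6 and 17.4-fold enrichment at most. The YH peaks reached past the middle base of the window, and the peaks of the other lists ended before it.

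No Tibetan peak overlapped the YH peaks at 3 of these 10 regions. At chr13:97446001-97446500 the YH peaks had 35, 27 and 22 tags (10.8, 16.2 and 12.4-fold), and 1 YL peak of 12 tags overlapped them, while the nearest TH and TL peaks were 5622 and 5554 bp away. At chr8:15522001-15522500 the YH peaks had 26, 20 and 17 tags, beside 1 YL peak of 24 tags and the nearest TL and TH peaks were 1528 and 7234 bp away. At chr9:38212501-38213000 they had 25, 23 and 22 tags beside 1 YL peak of 15 tags, and the nearest TL and TH peaks were 9337 and 10520 bp away. At chr3:142509501-142510000 the 3 YH summits fell on the same base, and the peaks (30, 25 and 22 tags) met 1 TL peak of 13 tags and 1 YL peak of 16 tags. The first 3 of these places, singled out after their values were seen, thus had 3 YH peaks beside 1 YL peak. At the remaining 6, chr2:88859501-88860000, chr2:85070001-85070500, chr1:104489501-104490000, chr7:107406001-107406500, chr9:82611501-82612000 and the region of highest enrichment, between 2 and 4 TH peaks overlapped the span of the YH peaks.

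Of the regions under 4 YH peaks, the 10 with the most tags in their weakest peak were mostly flanks as well. In 9 of 10 every YH peak overlapped another list, and 8 held no YH summit. Ranking by tags favoured such regions, since free-standing regions had fewer tags. Over all 32 regions under 4 YH peaks, 12 were free-standing. The strongest was chr12:57931501-57932000, where the YH peaks had 169, 168, 164 and 153 tags. These peaks were between 4288 and 5306 bp long and overlapped 4 YL, 2 TH and 2 TL peaks with up to 204, 70 and 111 tags. At chr6:37736501-37737000 the 4 YH peaks (175, 158, 126 and 115 tags) met 4 YL, 4 TL and 3 TH peaks. The exception was the region on chromosome 9 given above. At chr12:12234001-12235000 the YH peaks had 134, 115, 80 and 67 tags with summits within 115 bp, and the only other peak was of YL, with 40 tags, the TH and TL lists being empty for 5828 and 6469 bp. The remaining regions of this list, chr9:9019501-9020000, chr7:48492001-48492500, chr1:80617001-80617500, chr12:57318501-57320000, chr18:51243001-51244000 and chr11:11543501-11544000, had peaks of 38 to 103 tags in YH and peaks of all 3 other lists within the span of the YH peaks.

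The regions were spread over all 18 chromosomes. Numbers ran from 14 on chromosome 16 to 48 on chromosome 1. Relative to the largest peak end on a chromosome, the density was lowest on chromosome 8 (11.4 regions per 100 Mb) and highest on chromosome 10 (36.7), against 19.2 over all chromosomes. Relative to the windows with 3 or 4 YH peaks, the share that was private ran from 0.407% on chromosome 8 and 0.441% on chromosome 6 to 0.922% on chromosome 10 and 0.949% on chromosome 13. Chromosome 13 thus ranked high by share but not by density, at 20.6 regions per 100 Mb. The outer 10% at either end of the chromosomes held 22.3% of the regions (95% Wilson confidence interval 18.8–26.3%) and 34.4% of the windows with 3 or 4 YH peaks.

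The spacing of the regions was described without a comparison to random placement. Only 2 of them lay within 10000 bp of each other, chr11:18713501-18714000 and chr11:18714501-18715000, and the same 3 YH peaks covered both. A neighbour within 100000 bp was found for 24 regions (5.11%) and 1 within 1000000 bp for 160 (34.0%). Of the bins of 1000000 bp that held a region, 379 held 1, 38 held 2 and 5 held 3. The bins with 3 regions were on chromosome 1 (from 126000001 and from 165000001), chromosome 2 (from 86000001), chromosome 9 (from 50000001) and chromosome 13 (from 25000001).

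Windows private to the other groups were found with the same rule, to show where YH differed. There were 1604 in YL, 912 in TH and 454 in TL, or 0.259%, 0.147% and 0.0732% of the windows under a peak of any list. Out of the windows with 3 or 4 peaks of their own list, these were 1.4% in YL, 1.19% in TH and 0.649% in TL, beside 0.658% in YH. The YH and TL groups, both descended from animals moved from their home elevation, had the lower shares, but with 1 list per group no test of this was possible. Windows under all 4 peaks made up 6.66% of the private windows in YH (95% Wilson confidence interval 4.96–8.87%), 8.67% in YL, 4.85% in TL and 3.29% in TH. All windows with 3 or 4 own peaks included 45306 with 4 peaks of 95948 in YH, 49464 of 114708 in YL, 29879 of 69935 in TL and 20292 of 76919 in TH, so that the lists differed in this before any rule. With 4 own peaks required over the window, YH had 42 windows, TH 30, TL 22 and YL 139. As shares of the windows with 4 own peaks, these were 0.0927% in YH, 0.148% in TH, 0.0736% in TL and 0.281% in YL, where TH stood above YH. With only peaks of at least 10-fold enrichment, YH had the fewest, 74, against 545 in TH, 198 in YL and 183 in TL. The windows with 3 or 4 such peaks were not counted, so no share can be given. The autosomal median enrichment was itself lowest in YH (7.29) and highest in TH (8.28). With only peaks of at least 20 tags, the order was that of the main rule, with 1604 windows in YL, 611 in TH, 529 in YH and 243 in TL.

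In their surroundings, the values of the YH regions lay nearest to those of YL, without a test. A peak of another list overlapped 49.4% of the YH regions (95% Wilson confidence interval 44.9–53.9%) and 48.8% of the YL regions, against 36.0% of the TH and 32.8% of the TL regions. The median fold enrichment of the peaks over private windows was 6.77 in YH and 6.94 in YL, below the autosomal medians of their lists (7.29 and 7.49). It was 8.28 in TH and 8.35 in TL, where the list medians were 8.28 and 7.88. Median tags were 29 in YH, 32 in YL, 25 in TH and 21 in TL, and the whole lists had medians of 29, 30, 27 and 25. The lists also differed in size on the autosomes, with 263514 peaks in YH, 305654 in YL, 258861 in TH and 240851 in TL, and the part of this in the numbers above was not tested.

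**Figure D5:**
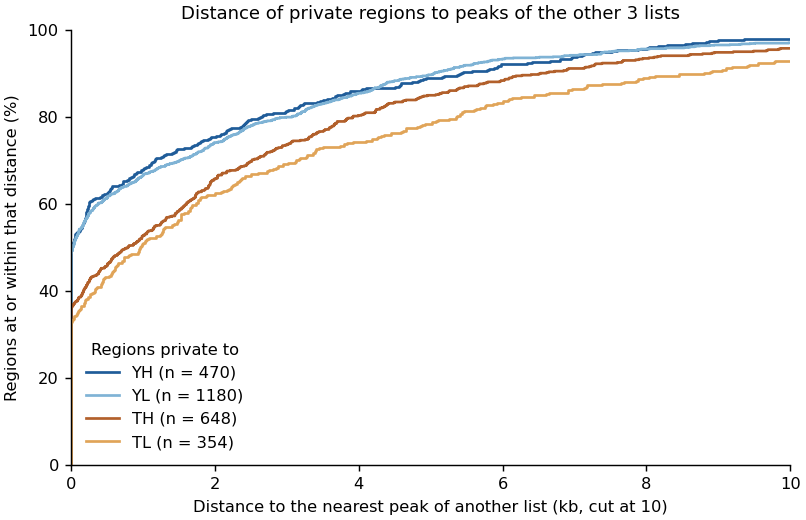
Share of regions (y axis, percent) with a peak of another list at or within a given distance (x axis, kb, cut at 10), for the regions private to each of the 4 groups. The YH and YL lines start near 49% at a distance of 0 and lie above the TH and TL lines, which start at 36.0% and 32.8%.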

How the data were processed

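MeDIP-seq of 16 pig hearts was analysed from 1 deposited peak list per group. Reads were trimmed by the authors (FASTX), aligned to the Sscrofa10.2 build by Bowtie, and searched for peaks by MACS. The deposited tags of a peak are a raw count, and the deposited fold enrichment is a ratio to the local background. The read depth of the libraries was not used here. The peak end was read from the joint start and end field, since 100907 TH rows hold it only there. Peaks over base 250 of each 500 bp window were counted. Regions to be named were the 10 longest (ties by the summed tags of their YH peaks), the 10 with the highest fold enrichment, and the 10 under 4 YH peaks whose weakest peak had the most tags, 29 in all. Members and rules were chosen with earlier results of these data known, and the split into free-standing and other regions was made after the values were seen. Counting used pandas 2.3.3 and NumPy 2.4.6 under Python 3.11.15 and was tested on simulated data. Intervals came from SciPy 1.17.1 and plots from Matplotlib 3.10.9. Wilson intervals cover counting error only. Genes, repeats and sequences at the regions were not analysed here, because no Sscrofa10.2 genome or annotation was used. Alternatives changed the number of peaks required, the grid, the window size, the distance to other peaks, minimum tags or fold enrichment, chromosome X, the end column and the joining of windows.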

Additional observations from a re-analysis of the deposited data

Results flagged for a closer look

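Chromosome X and the sequences outside chromosomes 1 to 18 and X were left out of the rule. On chromosome X, 16 windows in 12 regions lay under 3 or 4 YH peaks and 0 other peaks. They are given because they lie outside the chromosomes used above, and as they were found by the same rule their number is a description only. TH had 17 such windows of its own there, TL 3 and YL 31. On the remaining sequences, mostly unplaced scaffolds, 25 windows were private to YH, beside 26 to TH, 19 to TL and 73 to YL. The windows under peaks of each list were not counted on these sequences or on chromosome X. No shares can therefore be given, and the groups cannot be compared by these numbers.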

How the results depend on the processing

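Of 78 values under other settings, 45 stayed within 1.5 times the number of windows, regions or peaks, or within the 95% binomial interval of the share or median, and 33 moved. With 4 YH peaks required, 42 windows, 32 regions and 128 peaks remained, with a median fold enrichment of 6.12. With no other peak over any base of the window, there were 399 windows, 254 regions and 781 peaks, with a median of 24 tags. With none within 500 bp, there were 320 windows, 203 regions and 620 peaks (21.5 tags, 7.28-fold). With none within 2000 bp, there were 197 windows, 123 regions and 376 peaks (21 tags, 7.62-fold). Windows of 250 bp gave 1259 windows with a median region of 250 bp and 32 tags. With peaks of at least 20 tags in all lists the medians were 37 tags and 6.22-fold, and with peaks of at least 10-fold enrichment there were 74 windows, 64 regions and 196 peaks (23 tags, 11.3-fold). With at least 20 tags required of YH peaks alone, a setting chosen after seeing the data, there were 414 windows, 284 regions and 868 peaks (45 tags, 5.65-fold). The number of windows was 593 on a grid shifted by 250 bp, 647 with chromosome X and 746 with the end column alone, which drops TH peaks. No animal could be left out in turn, and no paired analysis was possible because the peaks carry no animal names. The weakest covering YH peak had fewer than 20 tags in 191 regions, near the lowest number of tags in the lists.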
